A study of Mus musculus with 203 samples.

Results

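Chil1, Chil3, Chil4 and Chia1 are 4 mouse genes of the chitinase family, glycoside hydrolase family 18, and they were followed here by name, through their Ensembl identifiers, in airway and parenchyma RNA-seq. They are 4 of the 43346 identifiers quantified in libraries from 20 groups of week, tissue and exposure. All libraries came from female Balb/C mice of 18-20 weeks, whose lungs were split by blunt dissection into airway and parenchyma. At 3 weeks, mice had received house dust mite (HDM) extract intranasally on 5 days per week for 3 weeks, or PBS as vehicle, which gave 11 PBS and 10 HDM airway libraries and 12 PBS and 10 HDM parenchyma libraries.

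At 11 weeks there were 16 groups of 10 libraries. They combined PBS or HDM, the latter continued 3 times per week over weeks 4 to 11, with normal air (AIR) or cigarette smoke (CS) on 5 days per week for 8 weeks, with or without dexamethasone (DEX) in week 11, and with tissue. The groups are written here as PBS.AIR, HDM.CS.DEX and so on. HDM models allergic asthma, CS models chronic obstructive pulmonary disease, and the combination models their overlap. Each library is a bulk sample, so fewer cells of a type and less RNA per cell cannot be told apart. The labels do not say whether 2 libraries came from 1 mouse, and every p-value measures the spread between these libraries.

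Chitinases cut chitin, the polymer of the mite exoskeleton and of fungal walls. Chia1 encodes acidic mammalian chitinase, a secreted and catalytically active enzyme. Chil1, known as BRP-39 or as the mouse form of YKL-40, and Chil3 and Chil4, known as Ym1 and Ym2, keep the fold of the family but have lost its catalytic activity. Chil1 is made by epithelial cells and macrophages and binds the decoy receptor Il13ra2. Chil3 is a classical product of alternatively activated macrophages and of alveolar macrophages, and Chil4 is known from the airway epithelium of allergic mice. IL-4 and IL-13, which signal through Stat6, are known inducers of Chil3, Chil4 and Chia1 in allergic lungs.

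Chil1 (ENSMUSG00000064246) lies on chr1:134182176-134190181, plus strand, on GRCm38 (mm10). The other 3 genes lie close together on chromosome 3: Chia1 (ENSMUSG00000062778) on chr3:106113229-106132120, plus strand, Chil3 (ENSMUSG00000040809) on chr3:106147554-106167564, minus strand, and Chil4 (ENSMUSG00000063779) on chr3:106201490-106219507, minus strand. Chil3 and Chil4 are near copies of each other. Their transcripts, of 1539 bases each, were identical in 1452 of 1540 aligned positions (94.3%), against 69.6% for Chil3 and Chia1 and 54.8% for Chil3 and Chil1. Of all stretches of 100 bases, the read length, 5.42% of the Chil3 transcript and 3.75% of the Chil4 transcript occur unchanged in another gene. Estimated counts that are not whole, which mark reads shared out between genes, occurred in all but 1 of the libraries for Chil3 and in every library for Chil4, and in none for Chil1 and Chia1. Chil4 values are therefore the least certain of the set where Chil3 is abundant.

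The likeness of the pair extends upstream of the genes, and the promoters are shown to let the near copies be compared where each gene starts. Below are the 250 bases before the RefSeq start of each gene (GRCm38.p6, minus strand, chr3:106167565-106167814 for Chil3 and chr3:106219480-106219729 for Chil4), 5′ to 3′, with the match to TTCNNNGAA in capitals.
Chil3: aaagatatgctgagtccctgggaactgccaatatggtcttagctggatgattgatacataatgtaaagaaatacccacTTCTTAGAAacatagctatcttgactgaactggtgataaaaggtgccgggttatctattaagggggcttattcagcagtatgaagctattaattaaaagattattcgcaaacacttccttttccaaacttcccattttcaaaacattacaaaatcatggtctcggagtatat
Chil4: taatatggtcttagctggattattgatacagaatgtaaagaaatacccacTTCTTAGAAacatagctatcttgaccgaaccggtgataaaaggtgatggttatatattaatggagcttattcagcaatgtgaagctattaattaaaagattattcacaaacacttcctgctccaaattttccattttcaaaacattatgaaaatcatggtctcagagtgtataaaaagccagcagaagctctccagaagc
The match is TTCTTAGAA in both, 200 bases before the RefSeq start in Chil4 and nearer to the RefSeq start in Chil3. The Chil4 window begins at 106219480, inside the gene as given above, which ends at 106219507. That of Chil3 begins just outside its gene, so the difference in distance depends on which annotated start is used. Over 250 to 50 bases around the starts, both promoters were identical in 251 of 273 aligned positions (91.9%). The same window held TTCNNNGAA in 8.3% of 32851 RefSeq promoters. The searched motifs, on both strands, were TTCNNNGAA, the Stat6 motif, which has 1 more spacer base between the same half-sites (in 6.95% of promoters), the glucocorticoid receptor palindrome (0.475%) and the aryl hydrocarbon receptor core GCGTG (32.4%). TTCNNNGAA was the only one of the 4 in the windows of Chil3 and Chil4, and none occurred in those of Chil1 and Chia1, which says only that the letters are not in these windows.

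Depth lay between 13003154 and 40240733 counts a library (median 28090684). Libraries X63 (3 week HDM airway) and X32 (11 week HDM.AIR.DEX parenchyma) stood farthest from their groups, and 5 libraries were nearest to another group, 4 of them to a group of the other tissue. Cyp1a1, Cyp1b1, Ahrr and Nqo1, which smoke constituents induce, were all 4 higher under CS in PBS mice in both tissues. Of 4 dexamethasone response genes (Fkbp5, Tsc22d3, Per1, Zbtb16) none was higher under DEX in PBS.AIR or HDM.AIR mice. In PBS.AIR mice 2 of 4 in airway and 3 of 4 in parenchyma were lower, so the DEX comparisons below are given as comparisons of the labelled groups. A gene was called when its adjusted p was under 0.05 and its log2 fold change (log2FC) at least 1 in size. Adjusted p-values are from limma-voom with the Benjamini-Hochberg method over all genes tested, unless another tool is named, and ± gives the standard error.

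Levels are given as CPM, counts scaled to library size with TMM. Per kb of transcript, the medians in 3 week PBS airway were 472.9 CPM for Chil1, 146.5 for Chil3, 47.22 for Chia1 and 0.1555 for Chil4. In 3 week HDM airway they were 1374 for Chil1, 2226 for Chil3, 192.6 for Chil4 and 71.27 for Chia1. Chil3 thus stood above Chil1 per kb in HDM airway and below it in PBS airway. In 3 week HDM parenchyma, the Chil3 median was 4775 CPM per kb (7348 CPM). No library was near that median, as all lay at 3898 CPM or less or at 10798 CPM or more.

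Each gene had its own order of groups. By median CPM, Chil1 ran from 488.1 in PBS.AIR airway to 2895 in 3 week HDM parenchyma, and its 5 lowest groups were PBS.AIR in both tissues, PBS.AIR.DEX airway and the 3 week PBS groups. Chil3 ran from 220.2 in PBS.AIR airway to 7348 in 3 week HDM parenchyma. Chil4 ran from 0.06101 in PBS.CS.DEX airway to 296.4 in 3 week HDM airway, where the second group, 3 week HDM parenchyma, was at 38.68 and the third, HDM.AIR airway, at 4.677. Chia1 had a different order: it was highest in PBS.AIR.DEX and PBS.CS.DEX parenchyma (368.2 and 363.5) and lowest in HDM.AIR airway (43). In none of the 4 orders did all libraries of a group lie above all libraries of the next group.

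**Figure D1:**
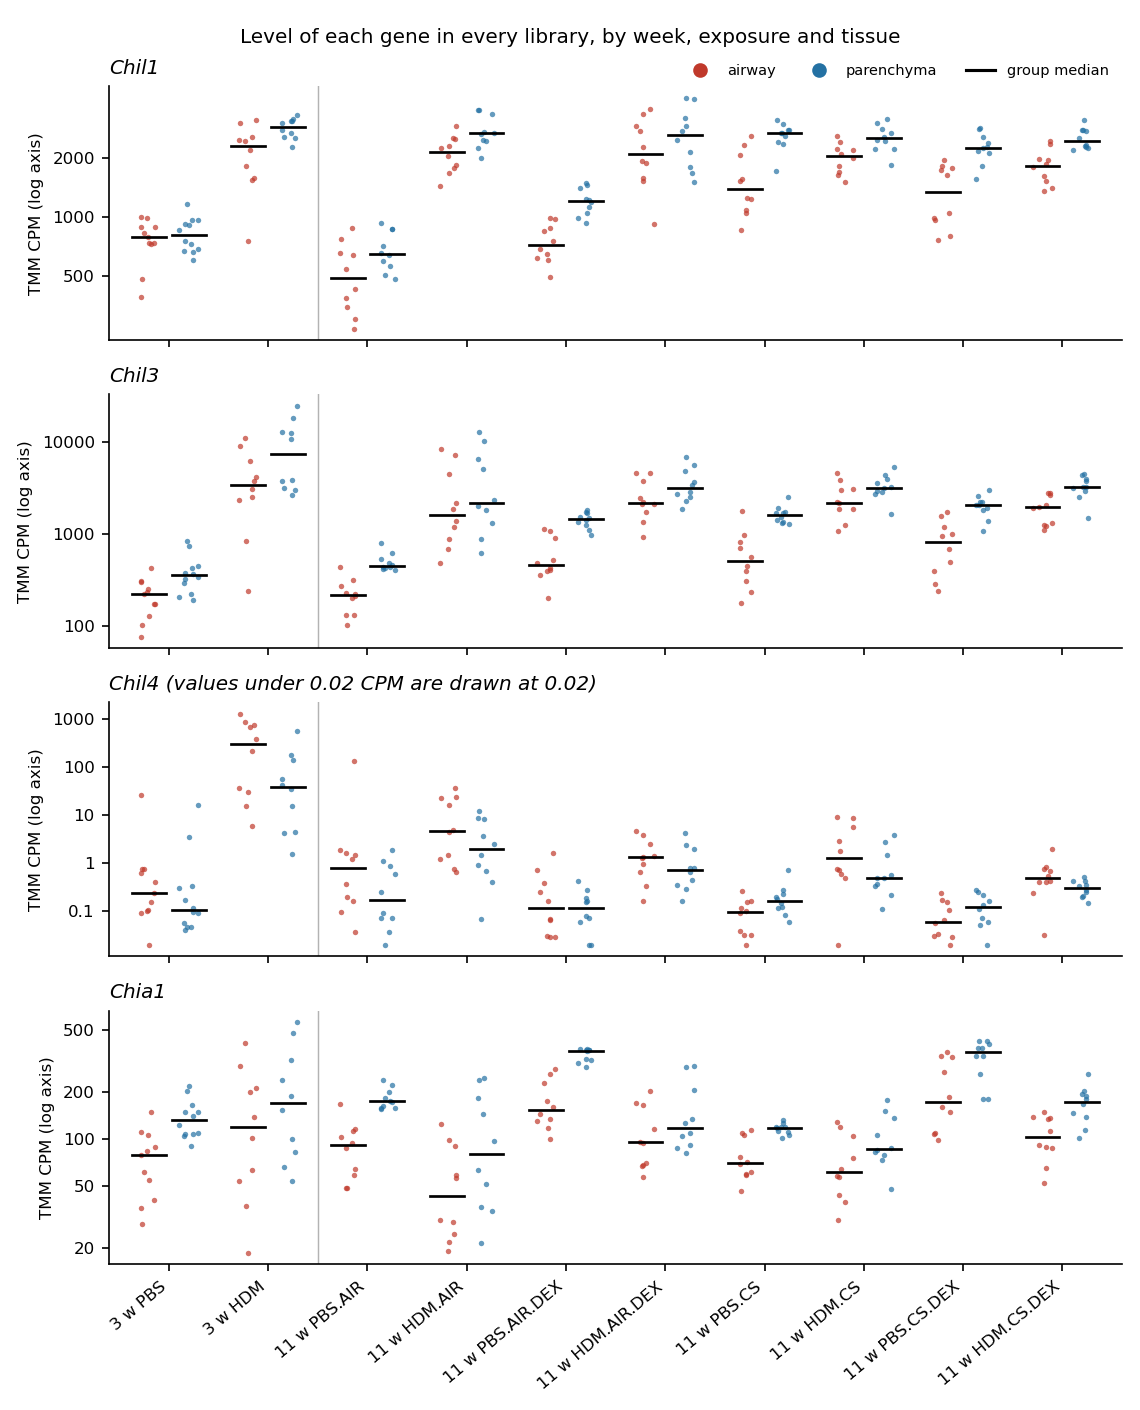
Level of Chil1, Chil3, Chil4 and Chia1 in each library (points), in CPM with TMM scaling on log axes, by week and exposure, airway in red and parenchyma in blue, with bars at group medians. Chil1 and Chil3 have their lowest medians in PBS.AIR airway. Chil4 is above 100 CPM in some HDM libraries at 3 weeks and in 1 PBS.AIR airway library (134.9). Chia1 has its highest medians in PBS parenchyma under DEX.

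The first question was how 3 weeks of HDM changed these genes in each tissue. All 3 chitinase-like genes rose in both tissues, Chil1 2.62-fold in airway and 3.35-fold in parenchyma, Chil3 14.2-fold in airway and 18.5-fold in parenchyma, and Chil4 from near absence. Chia1, the true chitinase, was not called in either tissue with limma-voom, and DESeq2 called it higher in airway. That is 3 of 4 genes called per tissue, against 24% of all 17381 genes tested in airway and 29.6% in parenchyma.

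In PBS airway Chil1 libraries ranged from 393.5 to 1005 CPM with a median of 797.8, and in HDM airway from 757.7 to 3116 with a median of 2319. In parenchyma they ranged from 607.1 to 1163 (median 809.2) under PBS and from 2283 to 3307 (median 2895) under HDM. The parenchyma groups did not overlap, and in airway 9 of 10 HDM libraries were above every PBS library, the exception being X63 at 757.7. The log2FC was 1.39 ± 0.17 in airway (adjusted p = 7.3e-10) and 1.74 ± 0.16 in parenchyma (adjusted p = 8.1e-13). Without X63 the airway value was 1.57 (adjusted p = 3.8e-13).

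Chil3 libraries ranged from 77.15 to 428 CPM (median 225.4) in PBS airway and from 244.4 to 10994 (median 3427) in HDM airway. In PBS parenchyma the range was 194.8 to 853.3 (median 356.4), and in HDM parenchyma 2663 to 24739 (median 7348). Again X63 was the 1 HDM airway library not above all PBS libraries, and the parenchyma groups were apart. The log2FC was 3.83 ± 0.43 in airway (adjusted p = 2.3e-10) and 4.21 ± 0.46 in parenchyma (adjusted p = 5.5e-11).

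Chil4 was close to the floor of 3 counts in most PBS libraries, with medians of 0.2394 CPM in airway and 0.1051 in parenchyma, where 7 of 12 libraries held at most 3 counts. Its PBS maxima, 25.72 in airway library X81 and 16.2 in parenchyma library X82, were far above those medians. HDM libraries ranged from 5.99 to 1266 CPM (median 296.4) in airway and from 1.548 to 553.7 (median 38.68) in parenchyma. Of 10 HDM libraries, 8 in airway and 6 in parenchyma were above every PBS library. The fitted log2FC was 8.69 ± 2.497 in airway (adjusted p = 0.0020) and 6.81 ± 2.83 in parenchyma (adjusted p = 0.028), and its size depends on the count of 0.5 that the method adds. edgeR gave 7.23 and 5.74, and a stricter filter, a CPM of at least 10 in 9 libraries, left adjusted p-values of 0.071 and 0.13.

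Chia1 was at 28.67 to 149.2 CPM (median 79.38) in PBS airway and at 18.58 to 416.2 (median 119.8) in HDM airway. Parenchyma libraries were at 90.03 to 220.7 (median 131.7) and 53.64 to 563.2 (median 171.4). The HDM range was wider than the PBS range on both sides. In airway 4 HDM libraries were above all PBS libraries and 1 below all of them, and in parenchyma 4 were above and 3 below. The log2FC was 0.60 ± 0.41 in airway (95% interval -0.22 to 1.42) and 0.25 ± 0.41 in parenchyma (-0.57 to 1.07). The airway value was 0.90 without X63 (adjusted p = 0.031) and 0.97 with edgeR (adjusted p = 0.027), both under the fold limit, and 1.01 with DESeq2 (adjusted p = 0.015), which is past it.

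With libraries treated as independent, the HDM effect at 3 weeks did not differ detectably between airway and parenchyma for any of the 4 genes. The difference of log2FC, airway less parenchyma, was -0.35 ± 0.23 for Chil1, -0.38 ± 0.63 for Chil3, 1.88 ± 3.78 for Chil4 and 0.35 ± 0.58 for Chia1, with adjusted p-values of 0.31 to 0.77. The 95% intervals were -0.82 to 0.12 for Chil1 and -1.65 to 0.89 for Chil3, and -5.74 to 9.50 for Chil4, which allows almost any difference. Over all genes this interaction passed in 17.3%. Over both time points, none of the 8 tests of the 4 genes had an unadjusted p under 0.05 with limma-voom, while edgeR and DESeq2 each called 1, Chil4 at 11 weeks. With neighbouring library codes as pairs, described with the tissue comparisons, the difference for Chil4 passed, at 2.03 (adjusted p = 0.027).

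Markers of other cells moved with HDM too. All 7 neutrophil markers rose in both tissues, and their summed level went from a median of 226 CPM (89.5 to 344) to 984 (513 to 1450) in airway and from 427 (341 to 614) to 1637 (1206 to 3791) in parenchyma. Of 7 alveolar macrophage markers, 1 rose and 1 fell in airway and 1 rose in parenchyma, with summed medians of 305 and 424 CPM in airway and of 478 and 672 in parenchyma. Mucus cell markers rose in 4 of 6 and 5 of 6. None of the 6 alveolar type II markers was called in airway and 1 fell in parenchyma. All 5 cardiac muscle markers fell in airway and none was called in parenchyma. Their part in the changes of the 4 genes was not tested.

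**Figure D2:**
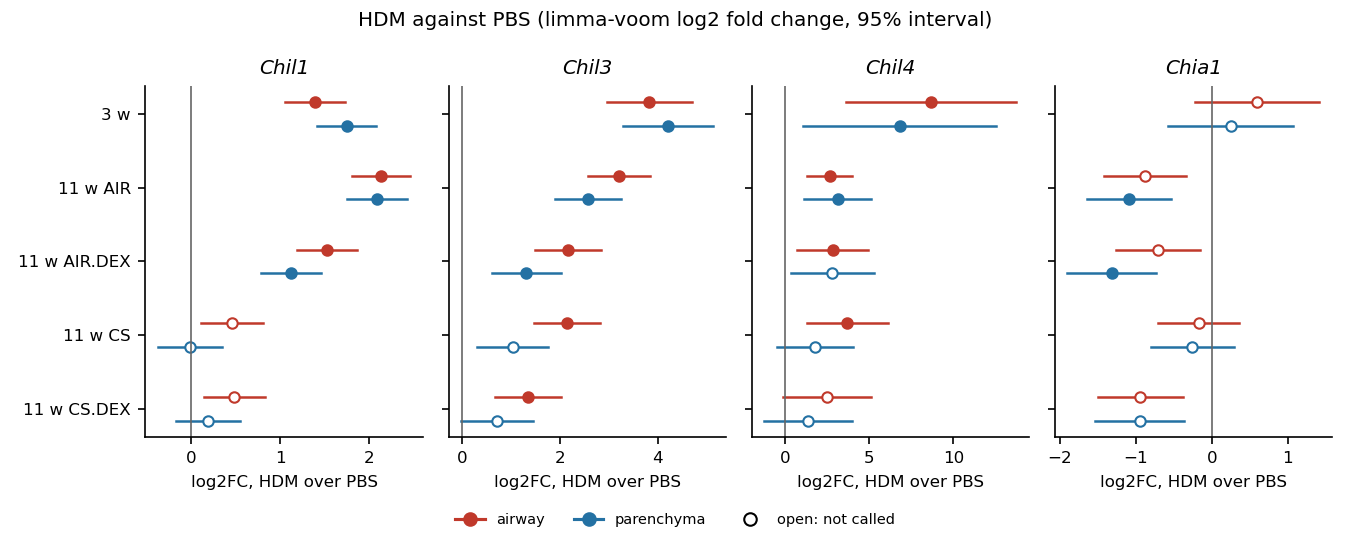
log2FC of HDM against PBS for the 4 genes (points) with 95% confidence intervals (lines), at 3 weeks and in the 11 week backgrounds of air or smoke with or without DEX, airway in red and parenchyma in blue, open symbols for values not called. Chil1 lies near 2 in air without DEX at 11 weeks and between -0.01 and 0.48 under smoke, while Chia1 is at or below 0 in every 11 week comparison.

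The second question was what continued HDM did by week 11 in mice kept in air. With limma-voom the 3 chitinase-like genes were again called higher in both tissues, but Chil4 in airway changed sign with edgeR and DESeq2. Chia1 was now lower, and called so in parenchyma alone. In airway 3 of 4 genes were called (19.1% of all 18250 genes tested) and in parenchyma all 4 (19.2% of genes).

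Chil1 rose from a range of 271 to 878.8 CPM (median 488.1) to 1439 to 2936 (median 2143) in airway, and from 485 to 939.1 (median 653) to 2014 to 3544 (median 2687) in parenchyma. No HDM.AIR library overlapped a PBS.AIR library in either tissue. The log2FC was 2.13 ± 0.17 in airway (adjusted p = 4.5e-24) and 2.09 ± 0.17 in parenchyma (adjusted p = 1.2e-22).

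Chil3 rose from 103.9 to 439.7 CPM (median 220.2) to 483 to 8342 (median 1621) in airway, with no overlap, for a log2FC of 3.21 ± 0.32 (adjusted p = 4.8e-17). In parenchyma it went from 408.4 to 810.1 (median 455.1) to 629.1 to 13020 (median 2179), a log2FC of 2.56 ± 0.34 (adjusted p = 3.8e-11). There, 9 of 10 HDM.AIR libraries were above all PBS.AIR libraries.

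Chil4 was at 0.03614 to 134.9 CPM (median 0.7891) in PBS.AIR airway and at 0.6394 to 37.02 (median 4.677) in HDM.AIR airway. The top PBS library, X5, exceeded every HDM.AIR library, and the groups overlapped. The log2FC was 2.67 ± 0.68 (adjusted p = 0.00032), but it turned to -0.28 (adjusted p = 0.74) with edgeR and -0.35 with DESeq2, and edgeR without X5 gave 3.88 (adjusted p = 2.4e-07). This call therefore depends on how a single PBS library is weighted. In parenchyma Chil4 was at 0 to 1.843 CPM (median 0.1701) and 0.0694 to 12.1 (median 1.986), a log2FC of 3.13 ± 1.01 (adjusted p = 0.0049), with 5 HDM.AIR libraries above all PBS.AIR libraries. With all libraries in 1 fit the parenchyma call was lost (adjusted p = 0.13).

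Chia1 fell. In parenchyma it was at 156.1 to 237.9 CPM (median 174.5) under PBS.AIR and at 21.55 to 245.8 (median 80.63) under HDM.AIR, with 7 HDM.AIR libraries below all PBS.AIR libraries and 2 above them. The log2FC was -1.08 ± 0.28 (adjusted p = 0.00041), and edgeR gave -0.65 (adjusted p = 0.032), short of the fold limit. In airway the ranges were 48.69 to 168.2 (median 90.94) and 19.04 to 125.8 (median 43), a log2FC of -0.87 ± 0.27 (adjusted p = 0.0036), which was not called for its size.

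With libraries treated as independent, the HDM effect in air did not differ detectably between tissues at 11 weeks either, with differences of 0.04 ± 0.24 for Chil1, 0.65 ± 0.47 for Chil3 and 0.21 ± 0.39 for Chia1 (adjusted p-values of 0.92, 0.31 and 0.73, against 27.6% of genes passing). For Chil4 it was -0.47 ± 1.22, with the opposite sign (0.33) without X5. With neighbouring codes as pairs, a fit that kept X5, it was -2.82 (adjusted p = 2.9e-05). Beside these values, 6 of 7 neutrophil markers rose in each tissue, and all 5 cardiac, all 5 smooth muscle and all 4 cartilage markers fell in airway, while in parenchyma none of these fell and 3 of 5 smooth muscle markers rose. The summed neutrophil level went from a median of 101 CPM (55.3 to 399) to 609 (305 to 1076) in airway and from 236 (160 to 632) to 720 (284 to 1133) in parenchyma. Alveolar macrophage markers were called in 2 of 7 in airway, both higher, and in 0 of 7 in parenchyma. Their part in these results was not tested.

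Set against the 3 week effect, in 1 fit of all libraries, the HDM log2FC at 11 weeks in air was lower for Chil4 and Chia1 in airway and for Chil3 and Chia1 in parenchyma. The effect on Chil4 in airway was lower by a log2 difference of -6.06 ± 1.78 (adjusted p = 0.0057), and by -5.30 without X5 and -3.44 with edgeR without X5. Chil3 in parenchyma differed by -1.77 ± 0.53 (adjusted p = 0.0039). The differences that did not pass were -0.68 for Chil3 in airway, and -3.80 for Chil4 and 0.22 for Chil1 in parenchyma. Chia1 differed by -1.53 ± 0.44 in airway (adjusted p = 0.0044) and -1.46 ± 0.45 in parenchyma (adjusted p = 0.0047), from 0.60 and 0.25 at 3 weeks, which did not pass, to -0.87 and -1.08 at 11 weeks. Chil1 in airway differed by 0.67 ± 0.24 (adjusted p = 0.021), in the other direction, and this call was lost with edgeR (0.55, adjusted p = 0.065), without X5 (0.57, adjusted p = 0.058) and without X63 (0.53, adjusted p = 0.073). In all, 3 of 4 genes passed in airway (28.4% of genes) and 2 of 4 in parenchyma (42.4%). The 2 time points differ in the length and the frequency of HDM exposure, which cannot be told apart.

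The third question was what cigarette smoke did. In PBS mice without DEX, smoke raised Chil1 and Chil3 in both tissues, with log2FC between 1.31 and 1.96, and Chil4 and Chia1 did not pass with limma-voom. That is 2 of 4 genes in airway, where 2.78% of genes were called, and 2 of 4 in parenchyma, where 5.33% were.

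Chil1 was at 271 to 878.8 CPM in PBS.AIR airway and at 857.2 to 2607 (median 1389) in PBS.CS airway, where 9 of 10 smoke libraries lay above every air library. The log2FC was 1.59 ± 0.16 (adjusted p = 1.2e-14). In parenchyma the PBS.CS libraries ranged from 1728 to 3142 (median 2684), all above the air maximum of 939.1, a log2FC of 1.96 ± 0.17 (adjusted p = 6.3e-20). Their median was within 3 CPM of the HDM.AIR parenchyma median of 2687.

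Chil3 was at 179.6 to 1771 CPM (median 512.6) in PBS.CS airway, a log2FC of 1.31 ± 0.29 against air (adjusted p = 0.00044), with 6 of 10 smoke libraries above all air libraries. In PBS.CS parenchyma it was at 1292 to 2553 (median 1614), with no overlap with air, and a log2FC of 1.73 ± 0.33 (adjusted p = 6.5e-06). Chia1 moved the other way in parenchyma without being called. Its lowest smoke library was at 101.7 CPM and the median at 118.5, and all 10 lay below the 156.1 to 237.9 of air, a log2FC of -0.62 ± 0.28 (adjusted p = 0.074). In airway its log2FC was -0.18 ± 0.27. The levels of Chil4 in PBS.CS mice were at or under 0.7027 CPM, and 4 of 10 airway libraries held at most 3 counts. Its airway median was 0.09712 CPM in PBS.CS and 0.7891 in PBS.AIR mice, a log2FC of -3.03 ± 1.25 (adjusted p = 0.094), while edgeR and DESeq2 called it at -7.06 and -7.18. Without X5 the value was -2.24 (adjusted p = 0.25) with limma-voom and -2.91 (adjusted p = 0.0062) with edgeR, so the size and the call depend on the tool and on that library.

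In HDM mice smoke changed Chil1, Chil3 and Chia1 by log2FC of -0.13 to 0.52, none called, with 95% intervals of -0.44 to 0.27 and -0.49 to 0.23 for Chil1 in airway and parenchyma. Chil4 was lower in HDM.CS airway (0 to 8.972 CPM, median 1.249) than in HDM.AIR airway (0.6394 to 37.02, median 4.677). Its log2FC was -1.99 ± 0.60 (adjusted p = 0.012), the groups overlapped, and DESeq2 gave an adjusted p of 0.061. That is 1 of 4 genes in airway, where 2.64% of genes were called. In mice that also had DEX, smoke raised Chil1 in PBS airway by 0.79 ± 0.16 (adjusted p = 0.00046) and in PBS parenchyma by 0.90 ± 0.17 (adjusted p = 3.2e-05), under the fold limit. With limma-voom no member was called for smoke in HDM parenchyma (4.36% of genes called), in PBS.DEX airway (1.06%) and parenchyma (2.79%) or in HDM.DEX airway (0.608%) and parenchyma (1.78%). In these 5 comparisons 2 of 20 tests had an unadjusted p under 0.05, and the same 2, both of Chil1 in PBS.DEX mice, an adjusted one. Over all smoke comparisons limma-voom called 5 of 32 tests, edgeR 7 and DESeq2 6. The added calls were of Chil4, in PBS airway as above and, lower under smoke, in HDM parenchyma (-1.88 and -1.90).

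The HDM effect on Chil1 was smaller under smoke than in air. Under CS, HDM changed Chil1 by 0.46 ± 0.18 in airway and -0.01 ± 0.18 in parenchyma, against 2.13 and 2.09 in air. The difference of log2FC was -1.67 ± 0.24 in airway (adjusted p = 7.6e-08) and -2.10 ± 0.25 in parenchyma (adjusted p = 4.2e-12). For Chil3 it was -1.53 ± 0.50 in parenchyma (adjusted p = 0.010) and -1.06 ± 0.47 in airway (adjusted p = 0.096, and called by edgeR and DESeq2). In airway 1 of 4 genes passed, with 19.1% of all genes, and in parenchyma 2 of 4, with 36%. Chia1 had differences of 0.70 ± 0.39 and 0.83 ± 0.39 that did not pass, and Chil4 had 1.04 ± 1.39 and -1.34 ± 1.52. Chil1 in PBS.CS parenchyma (median 2684) was at the level of HDM.AIR (2687) and HDM.CS parenchyma (2530). In airway the PBS.CS median of Chil1 was 1389, above the 488.1 of PBS.AIR. It was below the 2143 of HDM.AIR and the 2064 of HDM.CS airway. Chil3 still rose with HDM under smoke in airway (log2FC 2.15 ± 0.34, adjusted p = 1.1e-07), where 2 of 4 genes were called, Chil3 and Chil4, with 6.4% of all genes. The call of Chil4 was lost with all libraries in 1 fit (3.69, adjusted p = 0.18). In parenchyma, where 2.94% of genes were called, the log2FC of Chil3 was 1.03 ± 0.37, with an adjusted p of 0.056, and no member was called with limma-voom. There edgeR called Chil3 (1.06, adjusted p = 0.029), and DESeq2 called Chil3 (1.04, adjusted p = 0.024) and Chil4 (2.33, adjusted p = 0.025).

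Under smoke in PBS mice, 6 of 7 neutrophil markers rose in airway and 5 of 7 in parenchyma. Their summed level went from a median of 101 to 283 CPM (highest 585) in airway and from 236 to 559 (335 to 816) in parenchyma. Alveolar macrophage markers were called in 1 of 7 in each tissue, both higher. Their summed level was 317 CPM (highest 430) in air and 361 (210 to 670) in smoke in airway, and 527 (467 to 653) and 802 (752 to 1128) in parenchyma, where the smoke libraries were all above the air libraries. Alveolar type II markers were called in 0 of 6 in both tissues. The part of these cells in the changes of Chil1 and Chil3 was not tested.

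**Figure D3:**
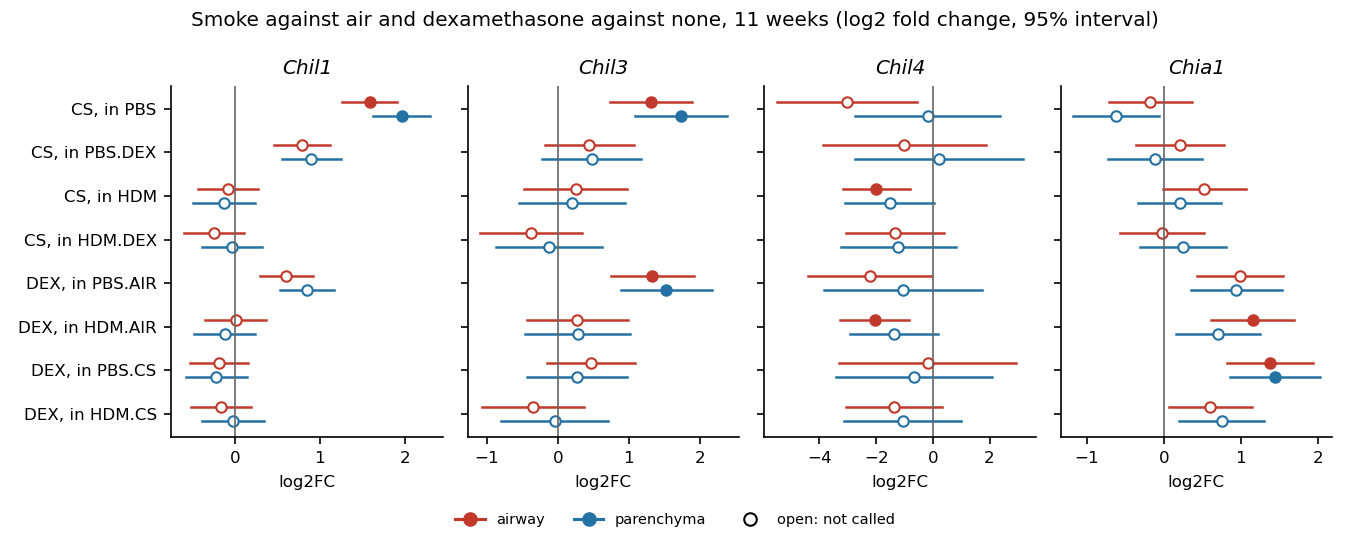
log2FC of smoke against air and of DEX against none for the 4 genes (points) with 95% confidence intervals (lines) in each 11 week background, airway in red and parenchyma in blue, open symbols for values not called. Smoke moves Chil1 and Chil3 upward in PBS mice without DEX, and Chia1 lies at 0.60 or above in every DEX comparison.

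The fourth question was what DEX did in week 11. Chia1 was higher with DEX in all 8 comparisons, by log2FC of 0.60 to 1.44, and 3 of them were called. In PBS.CS mice it went from 46.71 to 114.3 CPM (median 70.07) to 98.58 to 363.9 (median 173.1) in airway, a log2FC of 1.37 ± 0.28 (adjusted p = 0.00018), with 7 DEX libraries above all others. In PBS.CS parenchyma it went from a median of 118.5 (lowest 101.7) to 180 to 428.5 (median 363.5), with no overlap, a log2FC of 1.44 ± 0.29 (adjusted p = 0.00011). In HDM.AIR airway it went from 19.04 to 125.8 (median 43) to 56.84 to 202.7 (median 95.13), a log2FC of 1.15 ± 0.27 (adjusted p = 0.00047), and edgeR and DESeq2 gave 0.97, under the fold limit. In PBS.AIR mice the groups of parenchyma did not overlap (156.1 to 237.9 against 290.1 to 380.5), but the log2FC of 0.94 ± 0.30 (adjusted p = 0.013) was not called for its size.

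Chil3 was higher with DEX in PBS.AIR mice. It went from a median of 220.2 CPM to 458.2 (203.6 to 1141) in airway, a log2FC of 1.33 ± 0.29 (adjusted p = 0.00045), with 5 DEX libraries above all others. In parenchyma it went from 455.1 to 1462 (980.9 to 1842), with no overlap, a log2FC of 1.53 ± 0.32 (adjusted p = 0.00012). In the other 3 backgrounds its log2FC lay between -0.35 and 0.46 and was not called. Chil1 in PBS.AIR mice rose by 0.61 ± 0.16 in airway and 0.85 ± 0.16 in parenchyma, both past the adjusted p (0.0029 and 1.6e-05) and under the fold limit, and had log2FC of -0.22 to 0.01 elsewhere. Chil4 was lower with DEX in HDM.AIR airway, at 0.162 to 4.57 CPM (median 1.315) against 0.6394 to 37.02 (median 4.677). Its log2FC was -2.05 ± 0.62 (adjusted p = 0.0066), and the call was lost with all libraries in 1 fit (adjusted p = 0.16).

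By comparison, 1 of 4 genes was called in PBS.AIR airway (2.41% of all genes) and in PBS.AIR parenchyma (3.16%), 2 of 4 in HDM.AIR airway (5.86%), 1 of 4 in PBS.CS airway (2.47%) and 1 of 4 in PBS.CS parenchyma (2.75%). With limma-voom no member was called in HDM.AIR parenchyma (6.02%), HDM.CS airway (2.04%) or HDM.CS parenchyma (2.03%), where 3 of 12 tests, all of Chia1, had an unadjusted p under 0.05. Of these 12 tests, 1 also had an adjusted p under 0.05 and was not called for its size. Over all DEX comparisons limma-voom called 6 of 32 tests, edgeR 8 and DESeq2 7. The added calls were of Chil4, lower with DEX in PBS.AIR airway (-5.36 and -5.41) and in HDM.CS airway (-2.28 and -2.26) with edgeR and DESeq2, and in HDM.AIR parenchyma with edgeR (-1.84). In PBS.AIR airway limma-voom gave -2.21, not called. The libraries without DEX there include X5, at 134.9 CPM of Chil4 against a group median of 0.7891, so the size again leans on that library. Of 20 genes known to be induced by IL-13, 10 fell with DEX in HDM.AIR airway and 10 in HDM.AIR parenchyma, with list medians of -1.03 and -1.14 against 0.00 and 0.01 over all genes. Clca1, a secreted regulator of mucus, had log2FC of -3.43 in airway and -3.49 in parenchyma, and Retnla, a macrophage and epithelial product, of -2.06 and -2.69. In the same comparison the log2FC of Chil1 was 0.01 ± 0.18 and -0.12 ± 0.18, with 95% intervals of -0.35 to 0.36 and -0.48 to 0.24, and that of Chil3 0.27 ± 0.36 and 0.28 ± 0.38.

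The HDM effect on Chil1 in parenchyma in air was smaller with DEX, by -0.97 ± 0.24 (adjusted p = 0.0036), where 12.4% of genes passed. With DEX the HDM log2FC was 1.12 ± 0.17, from a PBS.AIR.DEX range of 937.7 to 1495 CPM (median 1209) to 1516 to 4068 (median 2620). For Chil3 the difference was -1.06 ± 0.47 in airway and -1.25 ± 0.50 in parenchyma (adjusted p = 0.20 and 0.079), called in both tissues by edgeR and DESeq2. No member passed in airway with limma-voom (4.62% of genes), with unadjusted p-values under 0.05 for Chil1 and Chil3. Under smoke, DEX changed the HDM effect by -0.81 to 0.19 for Chil1, Chil3 and Chia1 (log2), with unadjusted p-values of 0.053 to 0.91, and 0% of all genes passed in either tissue. With DEX in air, HDM raised Chil1, Chil3 and Chil4 in airway (3 of 4 called, 14.2% of genes). The Chil4 call was lost with all libraries in 1 fit (2.83, adjusted p = 0.21) and with library quality weights (2.30, adjusted p = 0.073). In parenchyma HDM with DEX in air raised Chil1 and Chil3 and lowered Chia1 by a log2FC of -1.32 ± 0.30 (3 of 4, 10.7%). With DEX and smoke it raised Chil3 in airway by 1.33 ± 0.34 (1 of 4, 6.65%), and no member was called in parenchyma (3.78%). In that airway comparison Chia1 had a log2FC of -0.94 (adjusted p = 0.006), under the fold limit, and edgeR and DESeq2 called it at -1.03 (adjusted p = 0.0018 and 0.00088). Over the 8 HDM comparisons at 11 weeks limma-voom called 16 of 32 tests, edgeR 18 and DESeq2 19.

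Beside these DEX comparisons, B cell markers fell in 3 of 4 in PBS.AIR and 4 of 4 in HDM.AIR mice in both tissues. Alveolar type II markers were called in 1 of 6 in PBS.AIR airway, higher, and in none in PBS.AIR parenchyma. Their summed level in parenchyma was 22508 CPM (18866 to 30518) in PBS.AIR and 34429 (30233 to 37497) in PBS.AIR.DEX mice, and 23455 (19219 to 30213) and 31687 (22417 to 39641) in PBS.CS and PBS.CS.DEX mice. Alveolar macrophage markers in PBS.AIR parenchyma summed to 527 CPM (467 to 653) without and 490 (378 to 536) with DEX. Fkbp5, a glucocorticoid target, ranged from 12.2 to 72.4 CPM in PBS.AIR parenchyma without DEX and from 19.6 to 53.5 with it. The part of these cells, and of the low response of the DEX genes, in the changes of the 4 genes was not tested.

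Between tissues, Chil3 and Chia1 had lower fitted levels in airway in all 10 exposure groups, and Chil3 was called in 4 of them and Chia1 in 2. Chil3 was called lower in airway in the 4 PBS groups at 11 weeks, with log2FC of -1.21 to -1.63. In PBS.CS mice, for example, it ranged from 179.6 to 1771 CPM in airway and from 1292 to 2553 in parenchyma, a log2FC of -1.63 ± 0.33 (adjusted p = 1.5e-05). In the 4 HDM groups at 11 weeks its log2FC was -0.51 to -0.81, with adjusted p-values of 0.11 to 0.39, and whether PBS and HDM mice differ in this respect was tested only at 3 weeks and in air without DEX, with the values given above. Chia1 was called lower in airway in PBS.AIR (-1.08 ± 0.28, adjusted p = 0.00050) and PBS.AIR.DEX mice (-1.04 ± 0.30, adjusted p = 0.0022), and edgeR left both just under the fold limit (-0.98 and -0.96). Chil1 was lower in airway by at most 0.80 on the log2 scale. Chil4 was called higher in airway in 3 week HDM mice (2.32 ± 0.81, adjusted p = 0.023), and edgeR and DESeq2 gave adjusted p-values of 0.086 and 0.12 for it.

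These tests treat libraries as independent, and the labels do not say which libraries share a mouse. Neighbouring odd and even library codes, however, were airway and parenchyma of the same week and exposure in all 101 cases, and their deviations from the group means had a Pearson r of 0.707 for Chil4, 0.611 for Chia1, 0.531 for Chil3 and 0.355 for Chil1. With these neighbours as pairs, an alternative added after the data were seen, 11 of 40 tests were called in place of 7 and none of the 7 was lost. Chil4 was then called higher in airway in 3 week HDM (2.47, adjusted p = 4.9e-08, higher in 10 of 10 pairs), PBS.AIR (4.36, adjusted p = 1.7e-12), HDM.AIR (1.54, adjusted p = 3.4e-06) and HDM.CS mice (1.44, adjusted p = 0.0034), and Chil3 lower in airway in 3 week HDM mice (-1.34, adjusted p = 0.0036). In PBS.AIR mice the pairs include X5 and X6 (134.9 and 1.1 CPM of Chil4), and no paired fit left X5 out. The pairs X25 and X26, X105 and X106, and X185 and X186 were lower in airway, the others higher.

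In the unpaired tissue comparisons 2 of 4 genes were called in PBS.AIR mice (16.1% of all genes), 2 of 4 in PBS.AIR.DEX (13.9%), 1 of 4 in PBS.CS (12.4%), 1 of 4 in PBS.CS.DEX (12.7%) and 1 of 4 in 3 week HDM mice (8.61%). With limma-voom no member was called in 3 week PBS (11.9%), HDM.AIR (3.04%), HDM.AIR.DEX (3.39%), HDM.CS (5.1%) or HDM.CS.DEX mice (6.03%), where 9 of 20 tests had an unadjusted p under 0.05. Of these 20 tests, 4 also had an adjusted p under 0.05 and were not called for their size. Over all tissue comparisons limma-voom, edgeR and DESeq2 each called 7 of 40 tests, of which edgeR and DESeq2 shared 4 with limma-voom. Both called Chia1 in HDM.AIR (-1.01 each), Chil4 in PBS.AIR (4.84 and 4.90) and Chil3 in 3 week HDM mice (-1.10 and -1.13), and neither called Chil4 in 3 week HDM or Chia1 in PBS.AIR and PBS.AIR.DEX mice. The Chil4 values in PBS.AIR mice include X5 (134.9 CPM), and limma-voom fitted 3.59-fold there, not called. Alveolar macrophage markers were also lower in airway. In PBS.AIR mice their summed medians were 317 CPM in airway and 527 in parenchyma, and those of alveolar type II markers 13030 and 22508. The part of these cells in the tissue differences was not tested.

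Because Chil3 and Chil4 are near copies, the share of Chil4 in their summed counts compares both within a library, free of scaling between libraries. In 3 week HDM airway the share was 8.08% at the median (0.195 to 16.3%), and in 3 week HDM parenchyma 0.425% (0.0583 to 2.19%). At 11 weeks it was 0.269% (0.0467 to 1.07%) in HDM.AIR airway and 0.075% (0.0122 to 0.169%) in HDM.AIR parenchyma. It was lower again in HDM.CS airway, at 0.0426% (0.000461 to 0.294%), and in HDM.AIR.DEX airway, at 0.0599% (0.0182 to 0.102%).

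The log2 ratio of Chil4 to Chil3 was compared between HDM groups in 8 permutation tests (2-sided, 100000 resamples, 10 libraries a group, adjusted over the 8), and all 8 passed. Airway exceeded parenchyma by 3.588 at 3 weeks (adjusted p = 0.0019) and by 2.025 at 11 weeks (adjusted p = 0.0024). The ratio at 3 weeks exceeded that at 11 weeks by 4.315 in airway (adjusted p = 0.00096) and by 2.753 in parenchyma (adjusted p = 0.0011). HDM.AIR exceeded HDM.CS by 2.258 in airway (adjusted p = 0.0096) and 1.691 in parenchyma (adjusted p = 0.006). HDM.AIR exceeded HDM.AIR.DEX by 2.339 in airway (adjusted p = 0.0011) and 1.427 in parenchyma (adjusted p = 0.007). These tests treat libraries as independent too. The lowest shares can be moved by a few Chil3 reads assigned to Chil4 and are not read as Chil4 expression, which limits the tests against the smoke and DEX groups. PBS groups were not tested. Their median share was 0.318% or less, with the 0.318% of PBS.AIR airway above that of HDM.AIR airway, 0.0255% in PBS.AIR.DEX airway and 0.0148% in PBS.CS airway. Single PBS libraries stood out, X5 at 50.3% and X81 at 25%.

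**Figure D4:**
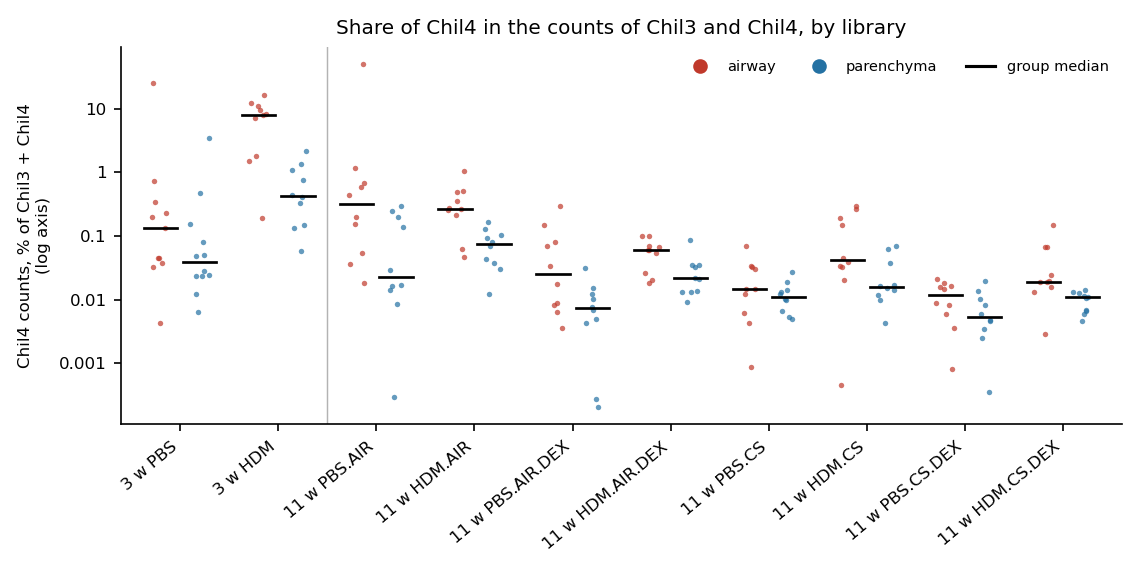
Share of Chil4 in the summed estimated counts of Chil3 and Chil4, in percent on a log axis, for each library (points) by week and exposure, airway in red and parenchyma in blue, with bars at group medians. The 3 week HDM airway group has the highest median (8.08%), and library X5 of PBS.AIR airway lies at 50.3%.

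Within groups, the genes varied together to different degrees. As a description over the deviations of all libraries from their group means, on log2 CPM, Chil3 and Chia1 were the closest members, with a Pearson r of 0.866 (Spearman rho 0.825), and of all genes Chia1 was the one most like Chil3. The points share library, depth and tissue composition. Chil1 and Chil3 had an r of 0.568 and Chil1 and Chia1 0.514. Chil4 had 0.473 with Chil3 and 0.051 with Chil1. Over the 20 group means the order changed: Chil1 and Chil3 had an r of 0.920 (rho 0.856), while Chia1 had 0.107 with Chil3 and -0.051 with Chil1.

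The genes most like each member within groups differed between members. For Chil1 they were Lamp3, a lysosomal protein of alveolar type II cells (r 0.804, rho 0.778), Mlc1 (0.796), Anxa4 (0.792), the surfactant protein gene Sftpa1 (0.785) and Egfl6 (0.781). For Chil3 they were, after Chia1, Atp6v0d2, a proton pump subunit of macrophages and osteoclasts (r 0.777, rho 0.782), Sgpp2 (0.764), the chemokine Ccl6 (0.744) and Ear2, a ribonuclease of alveolar macrophages and eosinophils (0.737). For Chil4 they were Clca1 (r 0.770, rho 0.709), the ribonuclease Rnase2a (0.734), Sprr2a2, an epithelial envelope protein (0.722), Retnla (0.718) and the calpain Capn9 (0.714). For Chia1 they were, after Chil3, Sgpp2 (r 0.777, rho 0.766), Pbld2 (0.718), Enpep (0.688) and Mid1ip1 (0.676).

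Over the 20 group means, Chil1 was most like the anion exchanger Slc26a4 (r 0.987, rho 0.956), Ch25h, which makes an oxysterol (0.985), the chemokine Ccl3 (0.983), Gm13571 (0.979) and 4930430E12Rik (0.974). Chil3 was most like the arginase Arg2 (r 0.979, rho 0.962), Adam17 (0.978), Gm15448 (0.978), Celsr3 (0.977) and Gm29094 (0.977). Chil4 was most like Sprr2a3 (r 0.968, rho 0.938), Sprr2a2 (0.966), Sprr2a1 (0.960), Gm15056 (0.952) and the trefoil factor Tff1 (0.945). For Chia1 the first were Abcf3 (r 0.947, rho 0.935), Cul1 (0.946) and Cdc37l1 (0.914).

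**Figure D5:**
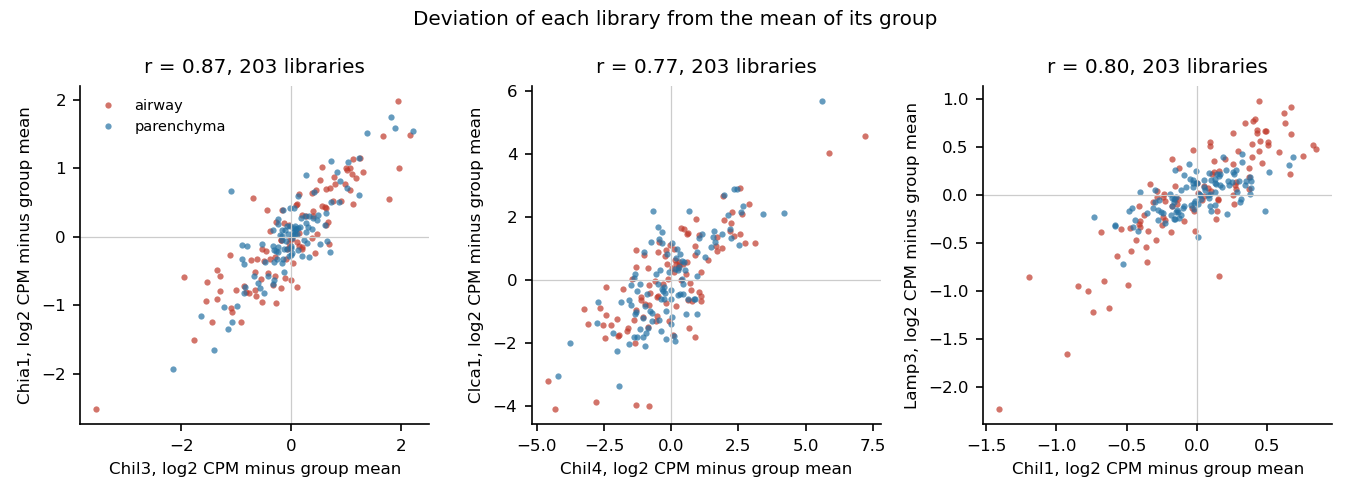
Deviation of each library from its group mean, in log2 CPM, for pairs of genes named on the axes, airway in red and parenchyma in blue, with Pearson's r in each title. Chil3 and Chia1 deviate together (r 0.866), as do Chil1 and Lamp3 (0.804) and Chil4 and Clca1 (0.770).

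The other 6 genes of the family were Chit1, Chil5, Chil6, Chid1, Ctbs and Ovgp1, and few of them moved. Under HDM none of the tested ones was called in airway at 3 weeks or in either tissue at 11 weeks in air, and Ovgp1, an oviduct glycoprotein, fell by 1.26 on the log2 scale in 3 week parenchyma. Chit1, the other active chitinase, rose with smoke. Its level was low, with a median of 0.165 CPM (0 to 0.52) in PBS.CS parenchyma against 0.0363 (0 to 0.0716) in PBS.AIR, and its log2FC was 1.70 in airway and 2.05 in parenchyma of PBS mice and 1.72 in both tissues of HDM mice. Chil5 fell with DEX in both tissues of PBS.AIR mice, with a log2FC of -1.57 in parenchyma, where its median was 0.207 CPM without DEX and 0.055 with it.

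Among 6 receptors and partners of chitinase-like proteins, Cd44, a hyaluronan receptor, Lgals3, a galectin that binds Chil1, and Il13ra2, the receptor of Chil1, rose under HDM in both tissues at 3 weeks and at 11 weeks in air. That is 3 of 6 each time, with list medians of 0.90 and 0.81 at 3 weeks against -0.07 and -0.13 over all genes, and of 0.82 and 0.91 at 11 weeks against 0.00 and 0.05. Of all genes, 24% in airway and 29.6% in parenchyma were called at 3 weeks, and 19.1% and 19.2% at 11 weeks. Ager, an alveolar type I receptor, fell by 1.18 in 3 week parenchyma. Under smoke in PBS mice Lgals3 rose in airway (1.14), and Cd44 (1.10), Lgals3 (1.58) and Il13ra2 (2.81) rose in parenchyma. In PBS.CS mice, where Chil1 rose in both tissues, 1 of the 6 rose in airway (2.78% of all genes called) and 3 in parenchyma (5.33%).

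The IL-4 and IL-13 pathway list moved with HDM as well. Of 13 tested genes 6 rose and 1 fell in 3 week airway (24% of all genes called), and 5 rose and 1 fell in parenchyma (29.6%). Il13 rose by 4.93 ± 0.53 in airway and 5.06 ± 0.50 in parenchyma, the feedback inhibitor Socs1 by 1.80 in airway and the receptor chain Il2rg by 1.78 and 2.17, and the epithelial cytokine Tslp fell, with log2FC of -1.75 and -2.16. At 11 weeks in air 5 of 14 rose and 2 fell in airway (19.1% of all genes called), and 5 rose and 1 fell in parenchyma (19.2%). Il13 was at 2.81 ± 0.53 in airway and 3.16 ± 0.53 in parenchyma. The HDM effect on Il13 was smaller at 11 than at 3 weeks, by -2.17 ± 0.75 in airway and -2.02 ± 0.74 in parenchyma (both adjusted p = 0.019). Under smoke in PBS mice, where Chil1 and Chil3 rose, none of 14 rose in either tissue and Il4 fell in airway by 1.26. Of all genes, 2.78% were called in that airway comparison and 5.33% in parenchyma. With shares this low, nothing about the list is read from the absence of calls. The median CPM of Il13 was 0 in PBS.CS airway and 0.0164 in PBS.CS parenchyma, against 0.0163 and 0 in PBS.AIR.

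Of the 20 IL-13 induced effector genes, 14 rose in 3 week airway and 17 in parenchyma under HDM, with list medians of 1.99 and 3.21 against -0.07 and -0.13 over all genes. Clca1 rose by 6.46 and 6.93, and Arg1, an arginase of alternatively activated macrophages, by 5.08 and 6.06. At 11 weeks in air 8 rose and 1 fell in airway (median 0.89 against 0.00) and 18 rose in parenchyma (2.61 against 0.05). Under smoke in PBS mice 5 rose and 3 fell in airway (2.78% of all genes called) and 8 rose in parenchyma (5.33%). Slc26a4 was at 3.72 in parenchyma and Retnla at 2.32 and 3.31. Clca1 fell by 3.54 in PBS.CS airway, a comparison in which library X5 (963 CPM of Clca1, against a median of 28.8 in the other 9 PBS.AIR airway libraries) is a control.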

How the data were processed

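Lung airway and parenchyma RNA was sequenced in 203 libraries as 100 base single reads. Per the labels and the study's methods, the authors aligned reads with STAR 2.5.1b to mm10, used RSEM 1.2.31 and Kallisto 0.44.0 with annotation m21, and deposited 1 table of estimated counts. Which of these tools wrote it is not given in the sources used here. Of nonzero values, 20.3% were not whole, and all were rounded. Of 43346 identifiers, 42462 matched GENCODE M21 without the version. Groups came from the labels. The members and gene lists were chosen with earlier results of these data known.

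Totals per library ranged from 13003154 to 40240733. limma-voom (limma 3.58.1, edgeR 4.0.16, R 4.3.3) with TMM was fitted over all genes with at least 10 counts, as CPM in the median library, in 9 libraries, separately for 3 weeks (17381 genes), 11 weeks (18250) and all libraries (18528, for 11 against 3 weeks). Calls needed an adjusted p under 0.05 and, for pairs, a log2 fold change of 1 in size. voom added 0.5 to each count. The steps were tested on simulated data. Genes named outside the members are the other family genes, the receptors and partners, the treatment check genes, at most 4 called genes of largest change per comparison from the IL-4 and IL-13 lists, and the 5 genes most like each member by Pearson's r. Levels were compared between genes only per kb of transcript. Sequences are from RefSeq (GRCm38.p6), in which all 4 members had a promoter. DESeq2 1.42.0 and edgeR's quasi-likelihood fit were run as alternatives, along with other scaling, filters, weights, left-out libraries and, for the tissue comparisons, pairs of neighbouring library codes.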

Additional observations from a re-analysis of the deposited data

Results flagged for a closer look

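In 4 of 72 sets of 10 libraries and 1 gene, 1 library lay far from the others of its group, and chance alone gives about 1 in 20. In PBS.AIR airway, X5 had 134.9 CPM of Chil4. In 3 week HDM airway, X63 had the lowest Chil1, 757.7 CPM. Library X94 had the lowest Chil1 of PBS.CS parenchyma, 1728 CPM, and X160 the lowest Chil3 of HDM.CS.DEX parenchyma, 1491 CPM.

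The HDM effect differed between backgrounds or time points in 9 of 40 tests (log2 differences, limma-voom). These were 0 of 8 by tissue, where 22.5% of the tests of all genes passed, 3 of 8 by smoke (27.5%), 1 of 16 by DEX (4.26%) and 5 of 8 by time point (35.4%), so nothing particular to these genes is read from the count. Under smoke against air it was smaller for Chil1 in airway (-1.67) and parenchyma (-2.10) and for Chil3 in parenchyma (-1.53). With DEX in air it was smaller for Chil1 in parenchyma (-0.97). At 11 weeks against 3 weeks it was larger for Chil1 in airway (0.67) and lower for Chil4 in airway (-6.06), Chia1 in airway (-1.53), Chil3 in parenchyma (-1.77) and Chia1 in parenchyma (-1.46).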

How the results depend on the processing

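Of the 39 calls on Chil1, Chil3 and Chia1, all 39 kept their sign and 34 stayed called under every alternative that covered them. Of the 16 alternatives run, the summed counts of Chil3 and Chil4 are left out here, and some covered only part of the comparisons. The other 5 were Chia1 with DEX in HDM.AIR airway, under HDM in air in parenchyma, and between tissues in PBS.AIR and PBS.AIR.DEX mice, and Chil1 between 11 and 3 weeks in airway. None of 10 Chil4 calls stayed called under all. The number of members called changed by more than 1.5 times for the tissue comparison, from 7 to 11 (pairs by neighbouring codes), the HDM effect by tissue, from 0 to 1 (edgeR, DESeq2) or 2 (pairs), the HDM effect by smoke from 3 to 5 (edgeR, DESeq2), and the HDM effect by DEX from 1 to 3 (edgeR, DESeq2) or 2 (library quality weights, edgeR without X5). With edgeR and DESeq2 smaller changes occurred elsewhere, such as from 16 to 18 and 19 for HDM at 11 weeks, 5 to 7 and 6 for smoke and 6 to 8 and 7 for DEX. The signs that turned were all of Chil4. Under HDM in air at 11 weeks in airway it was -0.28 with edgeR and -0.35 with DESeq2. With library quality weights, the HDM effect by smoke in airway was -0.25 and by tissue at 11 weeks 0.70, the latter between -0.46 and 0.33 with 1 library left out (0.33 without X5) and 0.86 with edgeR without X5. With Chil3 and Chil4 counts summed, the value takes the sign of Chil3 by construction: -1.13 (tissue, 3 week HDM), -1.10, -0.55 and -0.50 (tissue, PBS.AIR, HDM.AIR and HDM.CS), -0.31 (HDM effect by tissue, 3 weeks), 1.21 and 0.25 (smoke, PBS and HDM airway), 0.20 (smoke, HDM parenchyma), 1.23 and 0.27 (DEX, PBS.AIR and HDM.AIR airway), 0.28 (DEX, HDM.AIR parenchyma), -0.96 (HDM effect by smoke, airway) and 0.55 (HDM effect by tissue, 11 weeks). The cause of the other changes was not tested. The CPM filter of 10 removed Chil4 from the 11 week genes. The labels do not say which libraries share a mouse, and the pairing of neighbouring codes, a replicate block used for the tissue comparisons alone, is a hint from the codes and the data. It added 4 tissue calls and 2 differences between tissues, 5 of the 6 of Chil4, and removed none. X5 was kept in it. Chil4 had at most 3 counts in up to 7 of 12 PBS libraries, which limits its folds.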

Other observations

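The PBS libraries with the most Chil4 were also above the rest of their groups in Clca1, Retnla and Muc5ac. Il13, near the floor, was above the others in all 3 too. It was at 0.179 CPM in X5 (highest other 0.0825), 0.0611 in X81 (0.0359) and 0.0831 in X82 (0.0478). Il4 was within the range of the others in all 3 (0.537 CPM in X5, 0.305 in X81 and 0.664 in X82). Epx, an eosinophil marker, was at 0 in X81 and X82 and at 0.358 in X5. X5, at 134.9 CPM of Chil4, had 963 CPM of Clca1, 455 of Retnla and 40.4 of Muc5ac. X81, at 25.72 CPM of Chil4, had 441 of Clca1, 516 of Retnla and 31.5 of Muc5ac. X82, at 16.2 CPM of Chil4, had 546 of Retnla and 10.9 of Muc5ac. X5 had the lowest Chil1 of its group, 271 CPM, and 133.2 CPM of Chil3. The libraries and genes were singled out after their values were seen.

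In 3 week HDM parenchyma, Chil3 levels of 5 libraries lay between 10798 and 24739 CPM and those of the other 5 between 2663 and 3898, with none between.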
